A study of Homo sapiens with 6 samples.

Results

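Heat shock chaperones were compared between 2 sublines labelled as SKOV3, a human ovarian carcinoma line. The 10 genes are the HSP70 proteins HSPA1A, HSPA1B and HSPA8, their partners HSPH1 and DNAJB1, the HSP90 protein HSP90AA1, the mitochondrial chaperonin HSPD1, the small heat shock proteins HSPB1 and HSPB8, and the heat shock transcription factor HSF1. Every array probe that the platform annotation names for 1 of these symbols was taken, which gave 16 probes among the 48799 on the array. Of these, 15 probes of 9 genes passed the filter on dim probes, as did 19004 probes in all. The HSPB8 probe did not.

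The groups are SKOV3-OM3, labelled as metastatic (OM3), and the parental subline SKOV3-ip1 (ip1). Each group has 3 single-colour Illumina bead arrays, and each array holds the biotin-labelled cRNA of 1 sample. The labels name no treatment, dose or time, and they do not say how OM3 was derived or that the arrays of a group came from separate cultures, so the p-values reflect array-to-array spread alone, which may be technical. By these labels the design sets metastatic cells against a parental subline.

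Median raw signals lay between 131 and 142 units, and per array 38.2% to 41.9% of probes exceeded background. Over the probes that passed the filter, arrays of 1 group correlated at 0.983 to 0.986 and arrays of different groups at 0.821 to 0.836. Markers of the labelled line and of fibroblasts also moved between the groups, and in most of them the OM3 arrays go against the SKOV3 label. Of 10 markers of SKOV3 and ovarian carcinoma, 8 were lower in OM3 and 1 was higher, with a summed linear signal of 9222 to 10899 in OM3 and 44626 to 48432 in ip1. The keratin KRT19 and the lineage factors PAX8 and SOX17 were below background on all 3 OM3 arrays. ERBB2, the receptor for which SKOV3 is known, averaged 9.26 ± 0.15 in OM3 and 12.79 ± 0.05 in ip1 on the log2 scale (SD, n = 3 each), and CDKN2A, a cell cycle inhibitor that SKOV3 is known to lack, was at least 11.2-fold higher in OM3. Of 9 fibroblast markers, 7 passed the filter and all 7 were higher in OM3, where 30.0% of all genes were higher. Their summed signal was 7866 to 8929 in OM3 and 311 to 347 in ip1. Of the tested markers of other cells, 3 of 4 for mesothelium, 1 of 2 for adipocytes and 1 of 3 for leukocytes were lower in OM3. Over all genes 24.9% were lower. Neither endothelial marker passed the test. The part of these differences in the chaperone values below was not tested.

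Chaperones bind unfolded or partly folded proteins and help them reach or regain their shape. HSP70 proteins do so in cycles of ATP use that J-domain proteins start and nucleotide exchange factors end, HSP90 completes the folding of kinases and receptors, chaperonins enclose the protein in a chamber, and small heat shock proteins hold it without ATP. Under heat or other protein damage HSF1 binds heat shock elements in the promoters of many of these genes and raises their transcription, and tumour cells often keep such genes at high levels without heat.

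A heat shock element is made of the unit GAA and its reverse complement in alternation. The motif GAANNTTCNNGAA, with 3 units, was searched on both strands, and the motifs GAANNTTC and TTCNNGAA, with 2 units each and the same on both strands, lie within it. The search covered the 250 bases before each RefSeq transcription start (GRCh38.p14). Of 35116 such windows of all genes, 0.441% held the motif of 3 units and 11.6% a motif of 2. For 9 of the 10 chaperone genes, all but HSF1, 13 windows were searched, of which 3 (23.1%) held the motif of 3 units and 8 (61.5%) a motif of 2. HSF1 was left out of this search on purpose, so these shares cover 9 of the 10 genes. The windows of all genes were not limited in this way. The motif of 3 units lay in 1 window each of HSPA8, HSP90AA1 and HSPD1, and HSPH1 was the one gene of the 9 with neither motif. The windows of the 3 members that were lower in OM3, and those with the motif of 3 units of 2 members that were higher, are shown here, 5′ to 3′, with the matches in capitals.
HSPA1A, chr6:31815293-31815542, plus strand: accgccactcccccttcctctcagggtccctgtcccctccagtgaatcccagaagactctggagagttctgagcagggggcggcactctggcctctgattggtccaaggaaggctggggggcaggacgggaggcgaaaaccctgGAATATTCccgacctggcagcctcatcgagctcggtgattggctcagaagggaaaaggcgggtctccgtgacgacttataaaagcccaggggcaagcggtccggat
HSPA1B, chr6:31827488-31827737, plus strand: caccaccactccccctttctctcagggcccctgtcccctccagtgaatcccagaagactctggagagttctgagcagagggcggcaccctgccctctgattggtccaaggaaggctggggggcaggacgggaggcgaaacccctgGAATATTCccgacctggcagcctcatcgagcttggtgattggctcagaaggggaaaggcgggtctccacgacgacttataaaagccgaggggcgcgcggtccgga
HSPB1, chr7:76302423-76302672, plus strand: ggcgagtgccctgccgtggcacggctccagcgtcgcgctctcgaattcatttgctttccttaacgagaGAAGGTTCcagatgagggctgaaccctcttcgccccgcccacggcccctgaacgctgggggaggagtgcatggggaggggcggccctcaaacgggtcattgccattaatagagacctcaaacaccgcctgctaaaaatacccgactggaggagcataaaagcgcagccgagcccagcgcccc
HSPA8, chr11:123062137-123062386, minus strand: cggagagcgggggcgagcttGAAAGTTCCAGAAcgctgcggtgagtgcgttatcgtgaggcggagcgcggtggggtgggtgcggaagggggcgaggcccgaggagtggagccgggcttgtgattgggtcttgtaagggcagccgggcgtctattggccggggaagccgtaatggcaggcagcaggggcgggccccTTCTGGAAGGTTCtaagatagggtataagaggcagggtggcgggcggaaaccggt
HSPD1, chr2:197499841-197500090, minus strand: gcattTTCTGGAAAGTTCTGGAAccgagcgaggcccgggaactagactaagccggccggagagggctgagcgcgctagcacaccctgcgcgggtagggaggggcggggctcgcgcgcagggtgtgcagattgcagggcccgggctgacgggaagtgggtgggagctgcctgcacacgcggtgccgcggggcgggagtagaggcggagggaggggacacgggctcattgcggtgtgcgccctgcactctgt
The HSPA1A and HSPA1B windows are identical at 235 of 251 aligned positions (93.6%), with the element starting 106 bases before the start of HSPA1A and 105 before that of HSPA1B. HSPB1 has its match 182 bases before the start. HSPA8 has an element of 3 units at 230 and another at 55 bases, and HSPD1 has overlapping matches that begin 245 bases before the start. A match describes the letters of the window and was not tested for binding.

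Of the 9 tested members, 3 were higher in OM3 (HSPA8, HSPH1 and HSPD1), 3 were lower (HSPA1A, HSPA1B and HSPB1) and 3 did not pass the test (HSP90AA1, DNAJB1 and HSF1). Each gene is read here from its brightest probe, and the test is limma over all 19004 probes with Benjamini-Hochberg adjustment and a threshold of 0.05. Over all 11729 genes, 30.0% were called higher and 24.9% lower, so 33.3% in each direction among the members lies near the background. The median log2 fold change, OM3 over ip1, was 0.05 over the members and 0.09 over all genes. The values of the groups did not overlap for 6 of the 9 members, as for 64.2% of all genes. Since these are bulk samples, fewer cells of a type and less RNA per cell cannot be told apart. The decreases of HSPA1A and HSPB1 were large: HSPA1A had the 35th lowest log2 fold change of 11729 genes and HSPB1 the 177th lowest, while the 3 increases were under 2-fold. These ranks moved with the processing, to between 25th and 41st for HSPA1A, whose OM3 signal is near background. For HSPB1 they ran from 66th (deposited log2 values) to 182nd (without ip1 array 2) of 11729 genes. With probes above background on all 6 arrays HSPB1 was 29th of 8933 genes, at an unchanged log2 fold change of -4.36. By probe, 7 of 15 were higher, where 28.2% of all probes were, and 4 were lower, where 23.1% were.

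**Figure D1:**
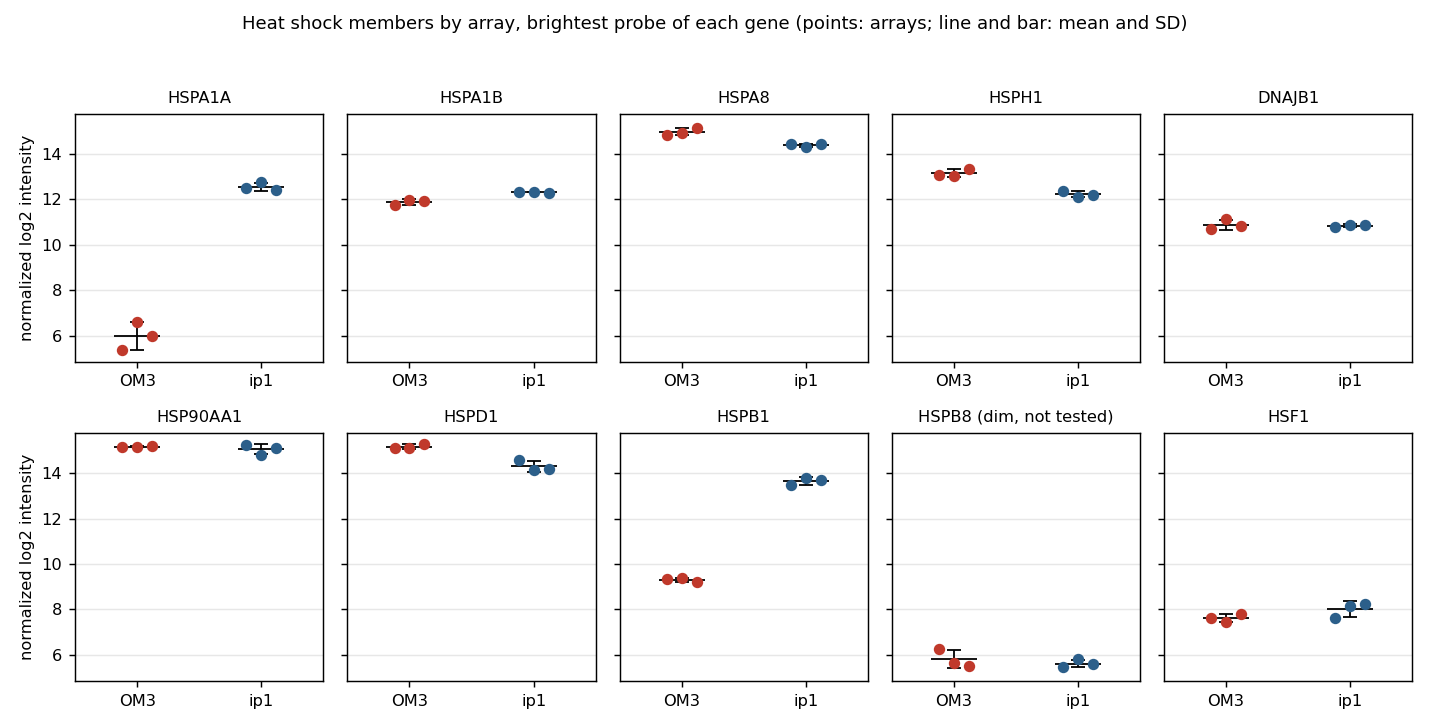
Normalized log2 intensity (vertical axis) of the brightest probe of each of the 10 genes, with 3 OM3 arrays at left and 3 ip1 arrays at right in each panel. Points are arrays, with the mean and SD as line and bar, and HSPA1A and HSPB1 lie far lower in OM3, HSPA8, HSPH1 and HSPD1 lie somewhat higher, and the HSPB8 probe is dim in both groups.

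HSPA1A encodes the main stress-inducible HSP70. Its probe had normalized log2 intensities of 5.34, 6.60 and 5.99 on the OM3 arrays, against 12.52, 12.76 and 12.42 on the ip1 arrays. The probe was bright on every ip1 array and at the edge of background in OM3, where it was above background on 2 of 3 arrays, so the size of the difference rests in part on background signal. The log2 fold change was -6.59 ± 0.29 (SE, n = 3 + 3, adjusted p = 4.30e-07). In raw signal, before any correction, the probe read 128, 180 and 149 units in OM3 and 6035, 6581 and 5020 units in ip1. Fitted to the deposited log2 values, the log2 fold change was -5.10 (adjusted p = 2.91e-17), and it was -5.37 without background correction (adjusted p = 1.33e-16).

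HSPA1B lies next to HSPA1A and encodes almost the same protein. Its probe read 11.74, 11.97 and 11.95 in OM3, against 12.32, 12.33 and 12.31 in ip1. It stayed bright in both groups, and the 3 OM3 values all lay below the 3 ip1 values. The log2 fold change was -0.44 ± 0.13 (adjusted p = 0.0230). The call was lost with median centring (adjusted p = 0.0676), with no filter on dim probes (0.173), without OM3 array 1 (0.0894) and without ip1 array 2 (0.0541) or 3 (0.0592). The difference between the fold changes of HSPA1A and HSPA1B, taken within each array, was -6.16 ± 0.31 (SE, n = 3 + 3) on the log2 scale. It rests on HSPA1A signal near background in OM3, and with 3 arrays against 3 an exact permutation test cannot go below p = 0.1. The transcripts are near-identical copies, so the assignment of signal to 1 or the other gene is uncertain, although their probes gave unequal differences.

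HSPA8 encodes the constitutive HSP70 of the cytosol. Its brightest probe read 14.84, 14.95 and 15.15 in OM3, against 14.44, 14.32 and 14.43 in ip1. Its second probe read 14.94, 14.85 and 14.96 in OM3 and 14.28, 14.18 and 14.14 in ip1. On both probes every OM3 array lay above every ip1 array. The log2 fold changes were 0.59 ± 0.14 (adjusted p = 0.00762) and 0.72 ± 0.13 (adjusted p = 0.00175), which is 1.50-fold and 1.64-fold. With no filter on dim probes, the call of the brightest probe was lost (adjusted p = 0.0749).

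HSPH1, a large HSP70 relative that acts as a nucleotide exchange factor for HSP70, read 13.07, 13.05 and 13.35 in OM3, against 12.38, 12.12 and 12.21 in ip1. The groups did not overlap. This gave a log2 fold change of 0.92 ± 0.15 (adjusted p = 0.00102), a 1.89-fold higher level in OM3.

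DNAJB1, the J-domain protein induced together with HSP70, read 10.70, 11.14 and 10.83 in OM3, against 10.78, 10.90 and 10.86 in ip1. The values overlapped. The log2 fold change was 0.05 ± 0.15, with a 95% interval from -0.31 to 0.40 (adjusted p = 0.828), and its sign turned with cyclic loess (-0.044) and without OM3 array 2 (-0.078). Of the other members, HSPA1A, HSPA1B and HSPB1 were called lower in the same arrays, and HSPA8, HSPH1 and HSPD1 were called higher.

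HSP90AA1 encodes the inducible cytosolic HSP90. Its brightest probe read 15.16, 15.15 and 15.20 in OM3, against 15.25, 14.81 and 15.11 in ip1, and the groups overlapped. On this probe the log2 fold change was 0.11 ± 0.15, with a 95% interval from -0.23 to 0.46 (adjusted p = 0.561). The second probe gave 0.23 ± 0.17 (adjusted p = 0.292). The third probe was dim, at 5.84, 5.92 and 6.10 in OM3, where 1 of 3 arrays was above background, and 6.99, 6.84 and 6.46 in ip1. It was called lower (-0.81 ± 0.17, adjusted p = 0.00430), so the probes of this gene disagree.

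HSPD1, the mitochondrial chaperonin HSP60, had 4 probes, and each was called higher in OM3. The brightest read 15.11, 15.11 and 15.29 in OM3, against 14.59, 14.16 and 14.18 in ip1, a log2 fold change of 0.86 ± 0.16 (adjusted p = 0.00234) or 1.82-fold. The other 3 gave 0.65, 0.98 and 0.82, with adjusted p from 0.00107 to 0.0110, and the last of them was above background on 1 of 3 ip1 arrays. No OM3 array overlapped an ip1 array on any of the 4 probes. The groups did not overlap for 64.2% of all genes, read from their brightest probes. HSPE1, the lid of the HSPD1 chamber and chosen here after its values were seen, averaged 14.01 ± 0.19 in OM3 and 13.63 ± 0.03 in ip1. Its log2 fold change of 0.38 ± 0.15 did not pass (adjusted p = 0.0557).

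HSPB1 encodes HSP27, a small heat shock protein that holds unfolding proteins and acts on actin filaments. Its probe read 9.33, 9.37 and 9.19 in OM3, against 13.48, 13.78 and 13.72 in ip1. Unlike the HSPA1A probe, it was above background on all 6 arrays. It gave a log2 fold change of -4.36 ± 0.14 (adjusted p = 9.67e-08), which makes the ip1 level 20.6-fold that of OM3. In raw signal it read 773, 780 and 704 units in OM3 and 11613, 13843 and 13047 units in ip1. Over the 17 alternative settings its log2 fold change lay between -4.53 and -4.12, and each kept the call.

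HSPB8, a small heat shock protein that works with BAG3 in the removal of misfolded proteins, was above background on 1 OM3 array only. Its probe read 6.26, 5.64 and 5.50 in OM3, against 5.46, 5.79 and 5.58 in ip1. With no filter on dim probes the log2 fold change was 0.19 ± 0.24 (adjusted p = 0.717). BAG3, chosen here after its values were seen, had a log2 fold change of 0.40 ± 0.13 (adjusted p = 0.0350).

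HSF1, the transcription factor of the heat shock response, was read by 1 probe at moderate signal. It gave 7.60, 7.43 and 7.82 in OM3, against 7.60, 8.14 and 8.25 in ip1. The lowest ip1 array lay within the OM3 values. The log2 fold change was -0.38 ± 0.20, with a 95% interval from -0.84 to 0.08 (adjusted p = 0.147). It was called lower with cyclic loess (-0.55, adjusted p = 0.0432), which moved the median of all genes by -0.106, and without ip1 array 1 (-0.58, adjusted p = 0.0238). Transcript level does not show how much of the protein is active.

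**Figure D2:**
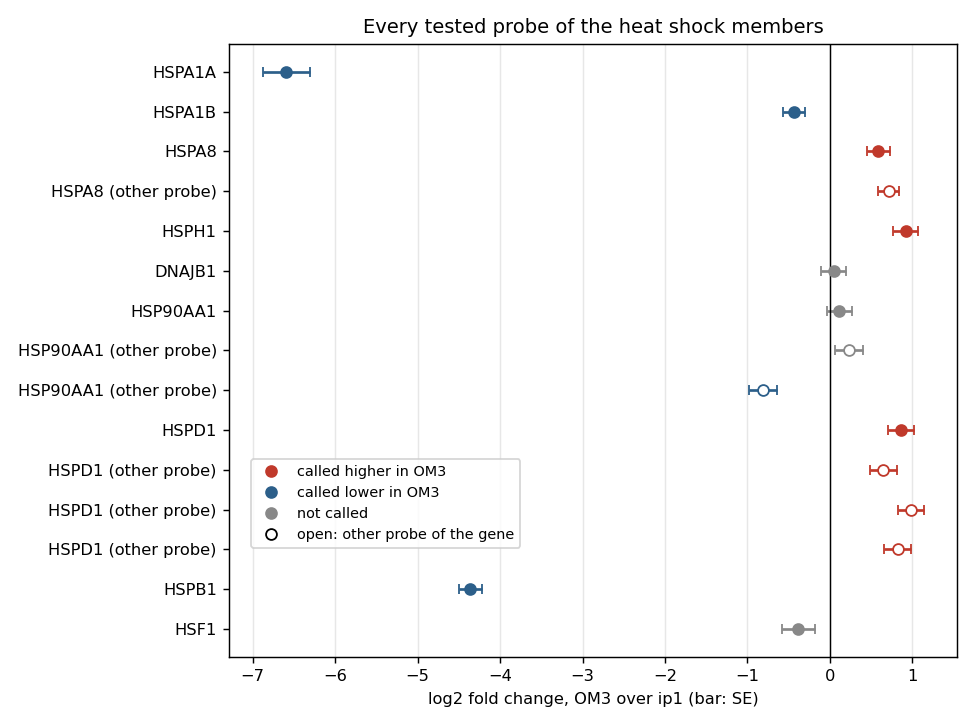
Log2 fold change, OM3 over ip1 (horizontal axis), of the 15 tested probes, with bars for the SE and filled points for the brightest probe of each gene. HSPA1A at -6.59 and HSPB1 at -4.36 stand far left, while the probes of HSPA8, HSPH1 and HSPD1 lie between 0.59 and 0.98.

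The wider chaperone network was read from 8 lists that hold 83 genes beside the members, 63 of them tested. Of the 63, 32 were higher in OM3 (50.8%, against 30.0% of all genes) and 9 were lower (14.3%, against 24.9%). Their median log2 fold change was 0.43, against 0.09 over all genes. The count of higher genes was 20 with no filter on dim probes, where 2347 of all 18849 genes were higher. The count of lower genes was 5 when probes had to be above background on all 6 arrays, where 2104 of all 8933 genes were lower. Both settings change how many network genes are tested, so these counts are not out of 63. The lists were chosen with results of these data known.

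Among 11 tested HSP70 relatives, 6 were higher (54.5%, against 30.0% of all genes) and 4 lower (36.4%, against 24.9%). HSPA4L, an exchange factor close to HSPH1, read 10.55, 10.09 and 10.77 in OM3, against 7.30, 6.98 and 7.11 in ip1, a log2 fold change of 3.34 ± 0.20 (adjusted p = 2.37e-06). HSPA4, of the same subfamily, rose by 1.56 ± 0.16 (adjusted p = 7.99e-05) on its brightest probe. Its dimmer probe gave a smaller rise of 0.61 ± 0.14 (adjusted p = 0.00688). HSPA2, an HSP70 known from the testis, was below background on all 3 OM3 arrays and at least 5.70-fold lower (adjusted p = 6.06e-06), and HSPA12A was at least 6.08-fold lower (adjusted p = 3.19e-06).

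The inducible HSP70 gene HSPA6 was dim, and its probes disagreed. The brighter one averaged 6.01 ± 0.09 in OM3, above background on 2 of 3 arrays, and 7.03 ± 0.30 in ip1 (log2 fold change -1.01 ± 0.18, adjusted p = 0.00151). The dimmer one averaged 6.76 ± 0.21 in OM3 and 5.72 ± 0.22 in ip1, above background on 1 of 3 arrays (1.04 ± 0.17, adjusted p = 0.00120). HSPA5, the HSP70 of the endoplasmic reticulum, chosen after its values were seen, had a log2 fold change of -1.27 ± 0.14 (adjusted p = 0.000121).

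Among 16 tested genes of the HSP90 family and its cochaperones, 8 were higher and 1 was lower. By the same test 30.0% of all genes were higher and 24.9% were lower. FKBP5, a cochaperone of steroid receptor complexes, rose by 2.23 ± 0.22 (adjusted p = 5.93e-05) and its relative FKBP4 by 1.52 ± 0.16 (adjusted p = 0.000102). STUB1, the ubiquitin ligase that marks chaperone clients for degradation, had a log2 fold change of -0.84 ± 0.22 (adjusted p = 0.0129). HSP90AB1, the constitutive HSP90 and chosen after its values were seen, rose by 0.61 ± 0.13 (adjusted p = 0.00432).

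Of 12 tested J-domain proteins of classes A and B, 7 were higher by limma on the brightest probe (58.3%, against 30.0% of all genes). By the same test 0 were lower, against 24.9% of all genes, and 2 were lower at an unadjusted p under 0.05. A dimmer probe of DNAJB6 was called lower (-1.26 ± 0.13, adjusted p = 7.91e-05). DNAJB12 was called higher on its brightest probe (0.60 ± 0.16, adjusted p = 0.0131), but its other probes gave -0.17, -0.38 and -0.029 and did not pass. DNAJA1, a main cytosolic partner of HSPA8, read 13.73, 13.91 and 13.92 in OM3, against 12.57, 12.21 and 12.48 in ip1. It rose by 1.43 ± 0.15 (adjusted p = 8.22e-05), and DNAJB14, of the endoplasmic reticulum membrane, by 1.05 ± 0.15 (adjusted p = 0.000445).

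Of 10 tested chaperonins, 6 were higher by limma (60.0%, against 30.0% of all genes). By the same test 0 were lower, against 24.9% of all genes (0 lower at an unadjusted p under 0.05 as well). CCT4 and CCT6A, subunits of the cytosolic chaperonin that folds actin and tubulin, rose by 1.23 ± 0.15 (adjusted p = 0.000175) and 1.06 ± 0.13 (adjusted p = 0.000201). Of 9 nucleotide exchange factors, 5 were higher (55.6%, against 30.0% of all genes) and 3 lower (33.3%, against 24.9%). The mitochondrial factors GRPEL2 and GRPEL1 rose by 1.26 ± 0.15 (adjusted p = 0.000206) and 0.75 ± 0.14 (adjusted p = 0.00240). BAG6 had a log2 fold change of -1.06 ± 0.14 (adjusted p = 0.000338), with a second probe at -0.24 ± 0.14 that did not pass, and BAG1 was at least 1.35-fold lower (adjusted p = 0.0345).

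None of the other 8 small heat shock proteins, CRYAB among them, passed the filter on dim probes, so HSPB1 was the one tested gene of that family. Of the heat shock factors and their binding protein, 2 of 6 listed genes were tested. HSF2BP, which binds HSF2, had a log2 fold change of -1.73 ± 0.22 (adjusted p = 0.000274, above background on 1 of 3 OM3 arrays), and HSBP1, at -0.34 ± 0.15, did not pass (adjusted p = 0.101). A separate list of 15 other genes known to be induced by HSF1 overlaps these lists. Of its 12 tested genes, 6 were higher, 1 was lower (HSPA6) and 5 did not pass. Among all genes 30.0% were higher and 24.9% were lower. The median log2 fold change of the 12 was 0.39, against 0.09 over all genes. HSPA6 was counted by its brighter probe, and its dimmer probe was called higher (log2 fold change 1.04). HSPA1A and HSPB1, which HSF1 also induces, had log2 fold changes of -6.59 and -4.36.

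**Figure D3:**
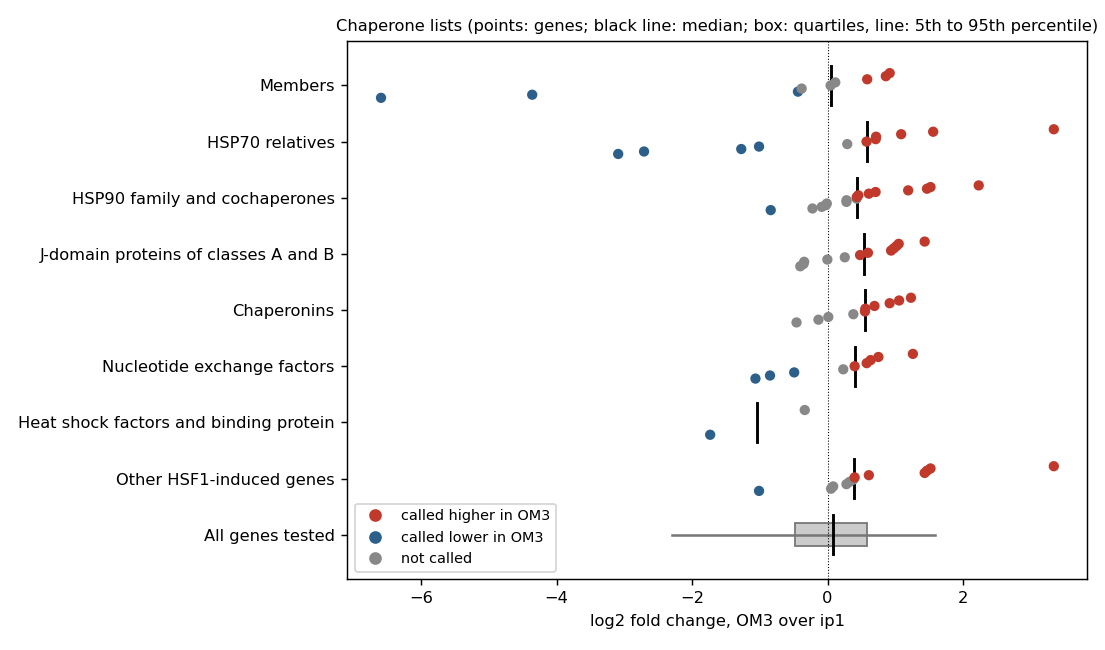
Log2 fold change, OM3 over ip1 (horizontal axis), of the tested genes of the members and of 7 lists, each point a gene and each black line a median, above a box for all 11729 genes. The medians of the lists of HSP70 relatives, HSP90 cochaperones, J-domain proteins, chaperonins and exchange factors lie between 0.40 and 0.58, against 0.09 for all genes. That of the other HSF1-induced genes is 0.39, and that of the heat shock factors and binding protein, with 2 tested genes, is -1.03.

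The chromosomal neighbours of the genes that fell were read as well, from the order of protein-coding genes in RefSeq. HSPA1A and HSPA1B lie on chromosome 6 within the major histocompatibility region. Next to them, HSPA1L, a relative of HSPA1A, had a log2 fold change of 0.29 ± 0.18 (adjusted p = 0.202), and LSM2, an RNA-binding protein, rose by 0.45 ± 0.13 (adjusted p = 0.0209). On the other side the lysosomal sialidase NEU1 rose by 2.20 ± 0.19 (adjusted p = 2.35e-05). VARS1, SLC44A4 and EHMT2 had log2 fold changes of 0.21, 0.096 and 0.32 and did not pass the test. Of these 6 neighbours, 2 were higher and 0 were lower by limma (0 lower at an unadjusted p under 0.05 as well). Over all genes 30.0% were higher and 24.9% lower.

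HSPB1 lies on chromosome 7. Of its 6 nearest measured neighbours, MDH2, a mitochondrial malate dehydrogenase, rose by 0.84 ± 0.13 (adjusted p = 0.000840), ZP3 rose by 0.72 ± 0.13 (adjusted p = 0.00217), and DTX2 had a log2 fold change of -1.53 ± 0.15 (adjusted p = 5.64e-05). TMEM120A, STYXL1 and YWHAG had log2 fold changes of 0.26, -0.27 and 0.23 and did not pass. The value of HSPB1 lay below those of all 6. HSPB1 was read here because it fell, and as the 177th lowest of 11729 genes it lay below most genes. This order was therefore near fixed in advance.

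**Figure D4:**
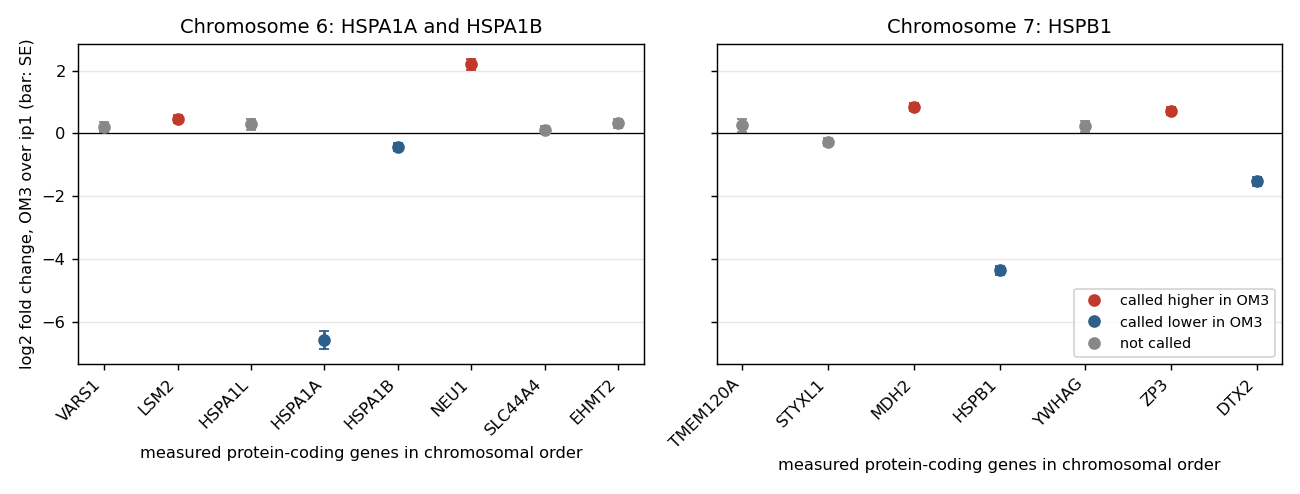
Log2 fold change, OM3 over ip1 (vertical axis, bars for the SE), of HSPA1A and HSPA1B on chromosome 6 and of HSPB1 on chromosome 7 with their 6 nearest measured neighbours, in chromosomal order. HSPA1A at -6.59 and HSPB1 at -4.36, chosen because they fell, lie far below their neighbours, of which NEU1 at 2.20 is the highest.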

How the data were processed

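Total RNA of each sample was amplified to biotin-labelled cRNA and hybridised to an Illumina bead array, per the labels' protocols. The authors deposited linear probe intensity values of 48799 probes, exported with BeadStudio (version not given) per the submitters' processing notes. The intensity columns name a group but not a sample, so arrays are numbered in column order. Those taken as the OM3 group are named OM1, OM2 and OM3, which could also be read as different sublines, and the SD and p-values given here treat them as replicates. A further 3 columns of per-sample values match no sample described here and were not used. The authors also deposited log2 values per sample. These share 1 distribution to within 0.0004, so they had been quantile normalized. Each matched 1 array of the same group at a rank correlation of 1, those of the OM3 group carrying sample titles that all name OM3, and they served as an alternative.

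Intensities were corrected with limma's normexp (offset 16), quantile normalized over the 6 arrays and put on the log2 scale, in place of a control-based correction, since the table used holds no control probes or detection p-values. A probe was above background on an array at a one-sided normal probability of 0.05 around the mode of the log2 signals (kernel bandwidth 0.02), and probes above it on at least 3 arrays were kept. For a probe that stayed below background throughout a group, "at least N-fold" sets the brighter group's mean against the lowest signal above background, or the probe's own where higher. Symbols came from the platform annotation, updated through RefSeq (GRCh38.p14): 28094 probes had 1 symbol, 13 several and 20692 none, and 39 identifiers were not matched. Differences, OM3 minus ip1, were tested with the moderated linear models of limma 3.58.1 under R 4.3.3 (two-sided, adjusted over all kept probes), and the code was tested on simulated data. The normexp offset shrinks the changes of dim probes, but other background treatments gave smaller ones for HSPA1A. Its log2 fold change was -6.59 with offset 16, -5.96 with offset 50 and -5.37 without background correction. Precision is limited by the 3 arrays of each group, and the median SE was 0.170.

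Genes were named by rule: all members, in each list up to 2 called genes with the largest rise and fall, and up to 3 measured neighbours on each side of HSPA1A with HSPA1B and of HSPB1. The members and lists were chosen with earlier results of these data known. The alternatives were cyclic loess, median centring, no background correction, a normexp offset of 50, the deposited log2 values, a stricter filter and none, 1 probe per gene, the mean of a gene's probes, a trended robust variance model, and leaving out each array. A replicate block was added after seeing the data.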

Additional observations from a re-analysis of the deposited data

How the results depend on the processing

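Over 17 alternatives, 6 of which leave out 1 array each, HSPH1, HSPD1 and HSPB1 kept direction and call in all, and HSPA1A in the 16 that measured it (log2 fold change -6.91 to -5.10), the filter on all 6 arrays having removed it. The member counts ran from 2 to 3 higher and from 2 to 4 lower. The chaperone network had 20 higher genes with no filter on dim probes, where all genes gave 2347 higher against 3524, and 5 lower genes with probes above background on all 6 arrays, a filter that removes genes near background in 1 group. The cause of the drop with no filter was not tested. Without 1 array in turn, the network gave 25 to 33 higher and 7 to 9 lower genes, the members 3 higher and 2 to 4 lower, and all genes 3078 to 3401 higher and 2593 to 2839 lower. The uncalled values of DNAJB1 and HSP90AA1 changed sign, DNAJB1 to -0.044 with cyclic loess and to between -0.078 and 0.14 without 1 array, and HSP90AA1 to -0.16 with the mean of its probes and to between -0.0087 and 0.21 without 1 array. The sample titles share no numbers between the groups, but the intensity columns are numbered 1 to 3 in each. With this number as a replicate block, chosen after seeing the data, the members gave 3 higher and 3 lower genes, the network 31 and 9, and all genes 3367 and 2824. Deviations of same-numbered arrays from their group means correlated at -0.047 to 0.065, and those of arrays with different numbers at -0.062 to 0.088. The deviations within a group cancel out, which holds such correlations low on average. Whether same-numbered arrays shared a culture or a day was not tested. Signal near background limits the size given for HSPA1A and leaves HSPB8 untested.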
